A study of Mus musculus with 6 samples.

Results

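Family C of the V2R vomeronasal receptors was taken as the 7 genes Vmn2r1 to Vmn2r7, found by symbol among 121 numbered V2R genes and 38561 genes in the table. All 7 had counts in all 6 libraries and all 7 passed the filter on low counts. The source was the vomeronasal organ of CD-1 males, an outbred stock of mice, and each of the 6 libraries held RNA pulled down with ribosomes whose protein S6 was phosphorylated, by an antibody to phosphorylated S6. Of these, 3 followed pup exposure (the pup libraries) and 3 a control exposure (the control libraries), and the labels name no allele, age, number of animals or duration for either. Whether each library is a separate animal is not stated in the labels, so every p-value below reflects only the spread between libraries, which could be technical.

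The vomeronasal organ detects pheromones through sensory neurons in an apical and a basal layer. Basal neurons carry V2R receptors, G protein-coupled receptors with a long extracellular ligand-binding part, and couple to the G protein Gαo (Gnao1). Family C members are the exception to the pattern of sparse receptor choice in that layer: each is found in many basal neurons, together with a more selective V2R of another family, and they are described as co-receptors for it. Vmn2r1 is a branch of its own, and Vmn2r2 to Vmn2r7 form the other branch, whose members are expressed in combination. Phosphorylation of S6 rises in recently active neurons, so precipitated RNA is weighted toward them.

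Depth ran from 10590716 to 11240065 total counts in the control libraries and from 18199476 to 20871266 in the pup libraries, so it separated the groups and cannot be told apart from exposure. Scaling factors (TMM) ran from 0.605 in control exposure replicate 3 to 1.39 in pup exposure replicate 2. Both vomeronasal receptor families were present in every library: V1R genes, the apical receptors, summed to 640 to 1163 CPM (counts relative to library size, TMM-scaled) and the V2R genes outside family C to 953 to 1748 CPM. The family C genes summed to 3608, 5922 and 1793 counts in control exposure replicates 1 to 3 and to 2177, 7107 and 5713 counts in pup exposure replicates 1 to 3.

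The 7 genes form a cluster on chromosome 3 of GRCm38, within 763 kb. GENCODE M21 annotates all of them as protein-coding, each with a coding sequence split over 6 exons. Vmn2r1 (ENSMUSG00000027824) spans 64081547 to 64109484 on the plus strand. The others are on the minus strand, in the order Vmn2r2 (ENSMUSG00000043897, 64115278 to 64141928), Vmn2r3 (ENSMUSG00000091572, 64257215 to 64289709), Vmn2r4 (ENSMUSG00000092049, 64383044 to 64415368), Vmn2r5 (ENSMUSG00000068999, 64488609 to 64509842), Vmn2r6 (ENSMUSG00000090581, 64531310 to 64565830) and Vmn2r7 (ENSMUSG00000062200, 64685044 to 64844765). Within the cluster are 13 annotated pseudogenes, which together held 0 to 10 counts per library. The non-coding transcript Gm26939 (64632863 to 64844743, minus strand) overlaps Vmn2r7 on the same strand and was listed at 0 counts in all 6 libraries.

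Their coding sequences are much alike, which bears on every count below, because a read from a shared stretch cannot be assigned to a single gene. In the alignment of the longest coding sequences, Vmn2r6 and Vmn2r7 were identical at 98.8% of bases and differed at 34 of 2739. Vmn2r4 was identical to Vmn2r7 at 97.3% and to Vmn2r6 at 96.8% of bases, so these 3 genes form a trio. Vmn2r2 and Vmn2r5 were identical at 93.3%, and every other pair lay between 84.4% and 89.7%. The stretch that is most alike is shown first, to show how completely members can coincide. It begins at coding base 247 of Vmn2r7 and 235 of Vmn2r1. In Vmn2r2 to Vmn2r7 all 60 bases were identical, and Vmn2r1 differed at 2 (capitals).
Vmn2r7: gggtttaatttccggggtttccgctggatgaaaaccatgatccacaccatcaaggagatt
Vmn2r1: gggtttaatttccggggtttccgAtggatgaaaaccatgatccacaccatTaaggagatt

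The next stretch is the one that best sets the trio apart from the rest, coding bases 1440 to 1499 of Vmn2r7, and is shown because Vmn2r6 and Vmn2r7, the members whose levels were lower in the pup libraries, both belong to it. Capitals mark bases that differ from Vmn2r7 at the same aligned place. Vmn2r6 differed at 2 bases and Vmn2r4 at 3, against 15 in Vmn2r2, 17 in Vmn2r3, 17 in Vmn2r5 and 29 in Vmn2r1.
Vmn2r7: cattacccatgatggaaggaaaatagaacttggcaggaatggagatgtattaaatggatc
Vmn2r6: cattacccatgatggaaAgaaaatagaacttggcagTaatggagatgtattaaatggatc
Vmn2r4: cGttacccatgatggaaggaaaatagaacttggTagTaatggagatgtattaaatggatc
Vmn2r2: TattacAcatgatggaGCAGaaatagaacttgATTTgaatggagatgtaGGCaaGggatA
Vmn2r5: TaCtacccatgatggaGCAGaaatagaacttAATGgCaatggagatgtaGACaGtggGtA
Vmn2r3: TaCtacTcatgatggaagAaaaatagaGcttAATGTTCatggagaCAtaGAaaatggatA
Vmn2r1: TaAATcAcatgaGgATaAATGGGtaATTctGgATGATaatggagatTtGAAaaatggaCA

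**Figure D1:**
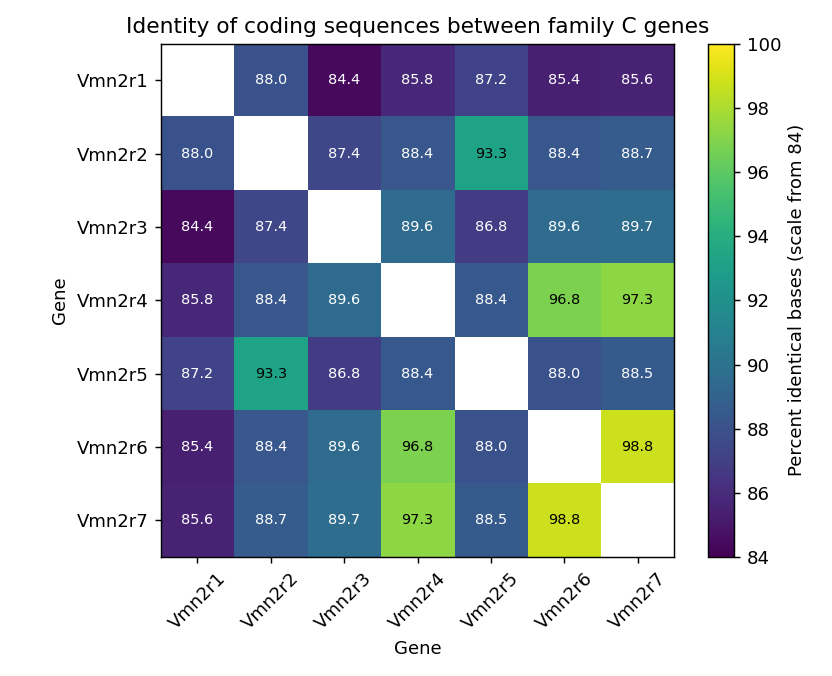
Percent of identical bases between the aligned longest coding sequences of each pair of family C genes, as a colour scale with each value printed. Vmn2r4, Vmn2r6 and Vmn2r7 form a block of 96.8% to 98.8%, and Vmn2r2 with Vmn2r5 stands at 93.3%.

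Of the 50-base words in the longest coding transcript, 51.6% in Vmn2r7 and 48.97% in Vmn2r6 also occur in a transcript of another gene, mostly in each other (46.6% and 45.2%). In Vmn2r5 the share was 43.6%, mostly with the pseudogene Vmn2r-ps11 (36.6%), which held 1 count in 1 library and 0 in the other 5. In Vmn2r4 it was 26.0%, in Vmn2r2 16.02%, in Vmn2r1 15.4% and in Vmn2r3 8.43%. How the authors' counting treated reads that match several places is not given in the sources used here, so the split between Vmn2r6 and Vmn2r7 in particular is uncertain.

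The comparison bears on whether co-receptor RNA in the precipitate differed after males met pups. None of the 7 genes passed the threshold over all genes, and the members did not share a direction: Vmn2r7 and Vmn2r6 were lower in every pup library, Vmn2r3 and Vmn2r5 were higher in every one, and the levels of Vmn2r1, Vmn2r2 and Vmn2r4 overlapped between groups. In edgeR's quasi-likelihood test 0 of 7 members were called at an adjusted p of 0.05, as were 0% of the 15498 genes tested in either direction. DESeq2 also called 0 members (0.406% of its genes were called higher and 0.626% lower), as did limma-voom (0.00645% and 0.0452%). Taking an unadjusted p under 0.05 in edgeR, 2 members stood higher and 2 lower, where 6.31% and 4.67% of all genes did. The log2 fold change was positive in 4 members and negative in 3, and over all genes in 51.5% and 48.5%. The CPM of the groups did not overlap in 4 of 7 members (2 higher, 2 lower), as in 19.8% of all genes in either direction. In these bulk precipitates, fewer cells of a type and less RNA per cell cannot be told apart.

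**Figure D2:**
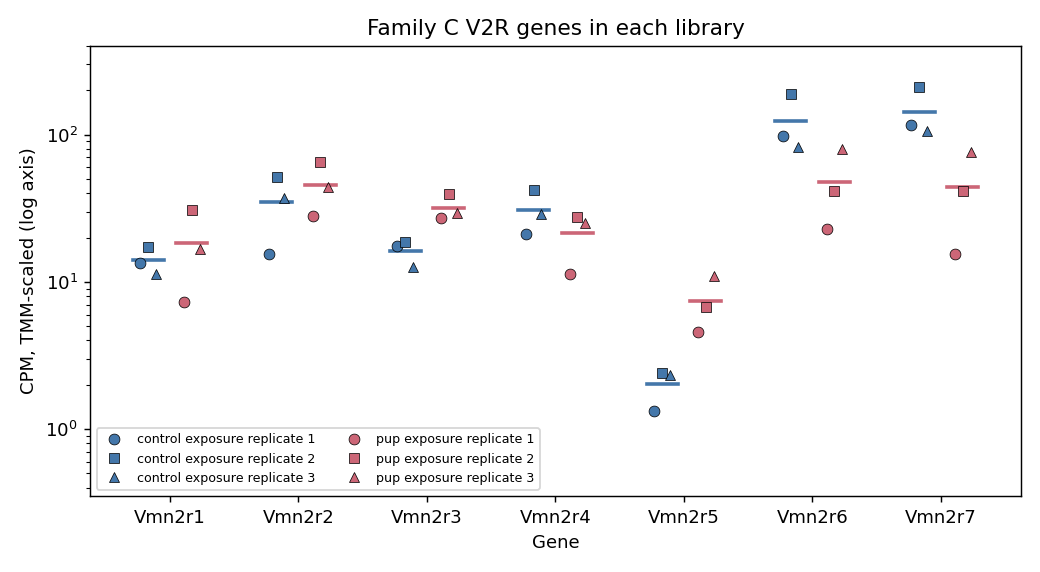
CPM (TMM-scaled, log axis) of each family C gene, with control libraries in blue and pup libraries in red, a marker shape for each replicate number and a bar at the group mean. Vmn2r6 and Vmn2r7 are lower in all 3 pup libraries than in any control library, and Vmn2r3 and Vmn2r5 higher.

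Vmn2r7 was the most abundant member in control libraries. Its level was 115.5, 209.1 and 105.0 CPM in control exposure replicates 1 to 3 and 15.4, 41.1 and 76.6 CPM in pup exposure replicates 1 to 3. The highest pup library was below the lowest control library, and the pup libraries differed widely among themselves. Means were 143 ± 57.3 and 44.4 ± 30.7 CPM (SD, n = 3 each), and the log2 fold change was -1.69 (SE 0.54, edgeR adjusted p = 0.405 over all genes). Of all genes tested, 2.26% had a smaller p. Without a filter on low counts, the adjusted p in edgeR was 0.0366 (log2 fold change -1.66), in a fit that called 0.247% of 23900 genes lower, and over the alternatives it ran from 0.0366 to 0.831.

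Vmn2r6, its near copy, had the same pattern. It stood at 98.5, 190.1 and 82.5 CPM in control libraries and at 22.8, 41.2 and 80.0 CPM in pup libraries. The groups did not overlap, but pup exposure replicate 3 came close to control exposure replicate 3. Means were 124 ± 58.0 and 48.0 ± 29.2 CPM (SD, n = 3 each), with a log2 fold change of -1.37 (SE 0.51, edgeR adjusted p = 0.424). Since the genes share much of their sequence, they were also summed into 1 row before the fit, a choice made after seeing the data. The sum had a log2 fold change of -1.53 (SE 0.53, edgeR adjusted p = 0.425), between the values of its parts.

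Within the pair the balance also differed. Vmn2r7 had 1.17, 1.10 and 1.27 counts for each Vmn2r6 count in control exposure replicates 1 to 3 and 0.678, 0.998 and 0.958 in pup exposure replicates 1 to 3. Every control ratio was above every pup ratio, but pup exposure replicates 2 and 3 were not distinguishable from equal counts: the 95% Wilson intervals for Vmn2r7's share of the pair were 47.9% to 52.0% and 47.2% to 50.7% (ratios 1.18 ± 0.0869 and 0.878 ± 0.175, SD, n = 3 each; two-sided exact permutation p = 0.1, the smallest that 3 against 3 libraries allow).

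Vmn2r4, the remaining gene of the trio, stood at 21.1, 42.3 and 29.1 CPM in control libraries and 11.3, 27.7 and 25.0 CPM in pup libraries. The groups overlapped, and its log2 fold change was -0.53 (SE 0.44, 95% interval -1.50 to 0.44, edgeR adjusted p = 0.649). With all 3 genes of the trio summed into 1 row, also chosen after seeing the data, the log2 fold change was -1.39 (SE 0.51, edgeR adjusted p = 0.425).

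Vmn2r5 was the least abundant member in counts and the one with the largest positive value. It had 17, 27 and 15 counts in the control libraries, or 1.33, 2.42 and 2.34 CPM, and 85, 192 and 220 counts in the pup libraries, or 4.56, 6.80 and 10.9 CPM. The lowest pup library was above the highest control library. The log2 fold change was 1.87 (SE 0.63, edgeR adjusted p = 0.424), and the control values rest on few counts.

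Vmn2r3, the member with the smallest share of common words, stood at 17.6, 18.6 and 12.7 CPM in control libraries and at 27.1, 39.2 and 29.3 CPM in pup libraries. Its groups were separated, and the spread within each was small beside that of Vmn2r6 and Vmn2r7. The means of 16.3 ± 3.16 and 31.9 ± 6.45 CPM (SD, n = 3 each) correspond to a fold of 1.96, and the log2 fold change was 0.97 (SE 0.38, edgeR adjusted p = 0.424).

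Vmn2r2 stood at 15.4, 51.3 and 37.4 CPM in control libraries and 28.2, 64.7 and 44.1 CPM in pup libraries, with overlapping groups and a log2 fold change of 0.40 (SE 0.48, 95% interval -0.64 to 1.44, edgeR adjusted p = 0.762). Vmn2r1, the branch of its own, stood at 13.5, 17.2 and 11.3 CPM in control libraries and 7.35, 31.0 and 16.6 CPM in pup libraries. The pup exposure values of Vmn2r1 lay on both sides of the control range. Its log2 fold change was 0.39 (SE 0.51, 95% interval -0.73 to 1.51, edgeR adjusted p = 0.788) and took the opposite sign, -0.22, without pup exposure replicate 2. For these genes a difference was not detected, and the intervals allow changes in either direction.

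**Figure D3:**
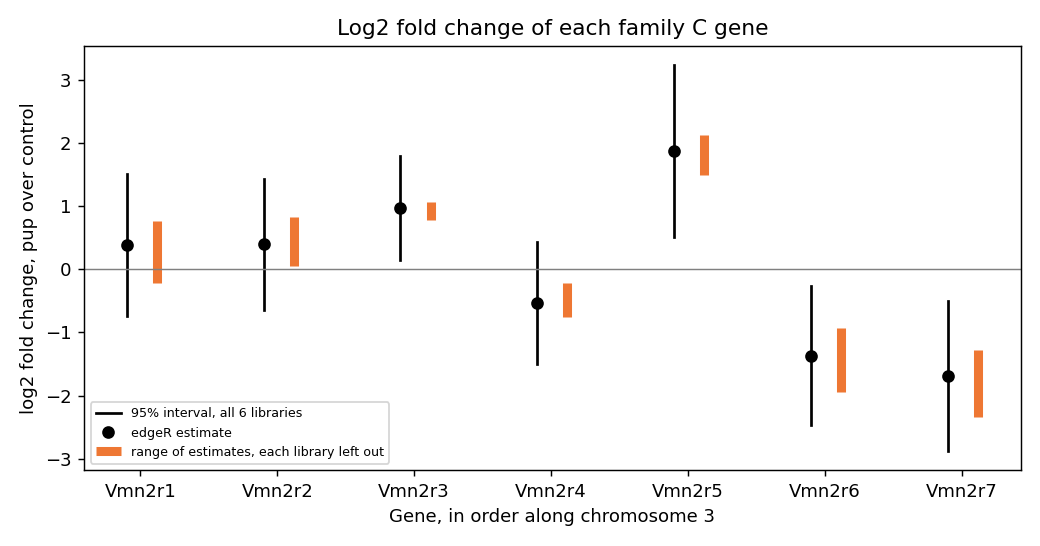
Log2 fold change (pup exposure over control exposure) of each family C gene in its order along chromosome 3, with the 95% interval from all 6 libraries in black and the range of estimates with each library left out in orange. Vmn2r6 and Vmn2r7 stay below 0 and Vmn2r3 and Vmn2r5 above 0 in every such fit, while Vmn2r1 crosses 0.

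The makeup of the family was also compared, as each member's share of family C counts, which does not depend on library scaling. Vmn2r7 held 40.8%, 39.4% and 37.5% of family C counts in control exposure replicates 1 to 3 and 13.2%, 16.3% and 27.1% in pup exposure replicates 1 to 3. Vmn2r6 held 34.8%, 35.8% and 29.5% in the control libraries and 19.5%, 16.4% and 28.3% in the pup libraries. Together the pair took 72.6% ± 4.91 of family counts in control libraries and 40.3% ± 13.1 in pup libraries (SD, n = 3 each), and pup exposure replicate 3, at 55.5%, lay nearest to the controls.

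Vmn2r1, Vmn2r2, Vmn2r3 and Vmn2r5 held larger shares. Vmn2r2 held 5.43%, 9.66% and 13.3% in control libraries and 24.2%, 25.7% and 15.6% in pup libraries. Vmn2r3 held 6.21%, 3.50% and 4.52% and then 23.2%, 15.6% and 10.38%. Vmn2r5 held 0.588% ± 0.216 and then 3.49% ± 0.680 (SD, n = 3 each). Vmn2r1 held 4.77%, 3.24% and 4.02% and then 6.29%, 12.3% and 5.88%, and its difference of 4.15 percentage points was 2.08 without pup exposure replicate 2. These 4 shares were higher in every pup library than in any control library, although the CPM of Vmn2r1 and Vmn2r2 overlapped between groups. Shares of a whole are complementary, so a lower share of some members raises that of the rest.

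Vmn2r4 was the exception: its share was 7.46%, 7.97% and 10.37% in control libraries and 9.69%, 11.02% and 8.84% in pup libraries (exact permutation test, two-sided, p = 0.3). It is close to Vmn2r6 and Vmn2r7 in sequence, yet its share of the family did not separate the groups. For the other 6 members the exact permutation test, two-sided, gave p = 0.1, the smallest the design allows, and 0.117 after Benjamini-Hochberg adjustment over the 7 shares. No share can therefore pass 0.05 with 3 libraries a group. The 95% Wilson intervals for a member's share in a library, which cover counting error only, were at most 2.24 percentage points on either side. Between the nearest control and pup libraries they did not overlap in Vmn2r3, Vmn2r5 and Vmn2r7. They did overlap in Vmn2r6 (27.38% to 31.6% in control exposure replicate 3, 27.17% to 29.5% in pup exposure replicate 3). The same held for Vmn2r2 and Vmn2r1. Overlap of such intervals does not by itself place a difference within counting error, and the differences between single libraries were not tested. In Vmn2r4 the group means differed by 1.25 points, and the groups overlapped.

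**Figure D4:**
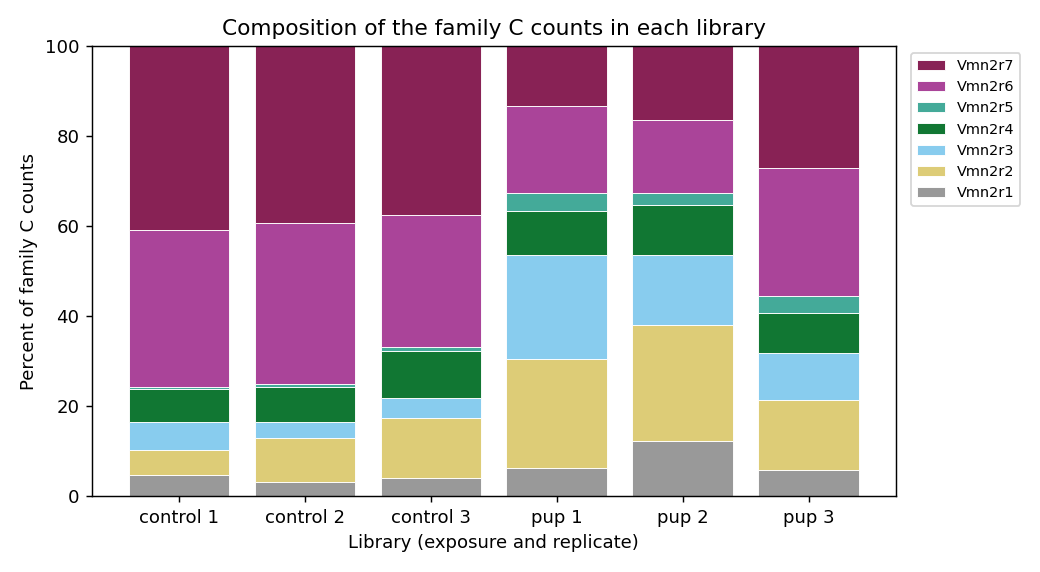
Percent of family C counts held by each member in each library, as stacked bars. Vmn2r6 and Vmn2r7 fill 66.9% to 75.7% of the control exposure bars and 32.7% to 55.5% of the pup exposure bars.

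The trio of Vmn2r4, Vmn2r6 and Vmn2r7 outnumbered Vmn2r2, Vmn2r3 and Vmn2r5 in counts by a factor of 6.86, 6.11 and 4.14 in control exposure replicates 1 to 3. In pup exposure replicates 1 to 3 the ratio was 0.828, 0.994 and 2.16. The lowest control library was above the highest pup library (5.70 ± 1.41 and 1.33 ± 0.724, SD, n = 3 each; two-sided exact permutation p = 0.1, the smallest possible). The division was made after the values were seen, and Vmn2r2, Vmn2r3 and Vmn2r5 are not a sequence group: Vmn2r3 was identical to the trio at 89.6% to 89.7% of bases, to Vmn2r2 at 87.4% and to Vmn2r5 at 86.8%.

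Lengths of the genes differ, so levels were compared between members per kilobase of annotated exon. In control libraries the order was the same in all 3 libraries: Vmn2r7 (mean 14.96 ± 5.99 CPM per kb), Vmn2r6 (13.0 ± 6.09), Vmn2r2 (6.58 ± 3.44), Vmn2r4 (3.23 ± 1.12), Vmn2r1 (2.04 ± 0.439), Vmn2r3 (0.934 ± 0.181) and Vmn2r5 (0.402 ± 0.120; SD, n = 3 each). In pup libraries Vmn2r2 had the highest mean per kb (8.67 ± 3.47), before Vmn2r6 (5.04 ± 3.07), Vmn2r7 (4.64 ± 3.21), Vmn2r1 (2.67 ± 1.74), Vmn2r4 (2.24 ± 0.921), Vmn2r3 (1.83 ± 0.371) and Vmn2r5 (1.47 ± 0.634; SD, n = 3 each), and the order differed between libraries. Neighbours in that order from Vmn2r6 down differed by less than the larger of their SDs, as did Vmn2r7 and Vmn2r6, and Vmn2r2 and Vmn2r4, in the control libraries. Vmn2r3 is annotated with 9 transcripts that cover 17.4 kb of exon, against 5149 bases in its longest coding transcript, so its level per kb is understated if the short form is the one expressed. Per kilobase of unshared words, added after seeing the data, Vmn2r2 kept the highest pup mean. Vmn2r7 (9.97) and Vmn2r6 (9.92) then came close to it, and Vmn2r3 (6.82) stood above Vmn2r4 (3.46) and Vmn2r1 (3.18). In control libraries Vmn2r3 (3.48) then stood above Vmn2r1 (2.43), and the other members kept their order. The order of members thus depends on the length used, and how reads from shared words were counted is not known.

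Set among all 121 V2R genes by CPM per kb, Vmn2r7 ranked 3, 2 and 5 in control exposure replicates 1 to 3 and 25, 15 and 7 in pup exposure replicates 1 to 3. Vmn2r6 ranked 5, 4 and 7 and then 13, 14 and 4. Vmn2r2 was near the top throughout, at 16, 7 and 9 and then 7, 4 and 5. Vmn2r5 moved from 69, 62 and 63 to 43, 46 and 23, so the most and the least abundant members lay closer together in pup libraries.

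As a whole, family C summed to 365 ± 144 CPM in control libraries and 217 ± 88.2 CPM in pup libraries (SD, n = 3 each). The groups overlapped, since pup exposure replicate 3 (282.5 CPM) was level with control exposure replicates 1 (282.8 CPM) and 3 (280.2 CPM), and the exact permutation test, two-sided, gave p = 0.2. All 7 members summed into 1 row had a log2 fold change of -0.75 (SE 0.46, edgeR adjusted p = 0.545). The family's share of all counts was 0.0349% ± 0.0196 and 0.0247% ± 0.0117 (SD, n = 3 each; two-sided exact permutation p = 0.5), and without control exposure replicate 2 the difference was 0.000209 percentage points in the opposite direction.

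Against the other V2R genes the family was smaller in pup libraries. It held 20.9%, 28.8% and 22.7% of V2R counts in the control libraries and 8.68%, 12.6% and 14.3% in the pup libraries, with no overlap (two-sided exact permutation p = 0.1, the smallest possible). The V2R total includes 3 genes with large differences in both directions. Vmn2r88 stood at 56.0 to 66.0 CPM in control libraries and 442 to 700 CPM in pup libraries, Vmn2r65 at 4.47 to 26.3 and 64.3 to 152 CPM, and Vmn2r116 at 74.9 to 149 and 4.56 to 19.2 CPM. With Vmn2r65, Vmn2r88 and Vmn2r116 left out of the total, the family held 24.9%, 32.7% and 25.9% and then 14.0%, 18.1% and 25.0%, and the groups overlapped (exact permutation test, two-sided, p = 0.2). The trio took 19.6% ± 3.76 of V2R counts in control libraries and 6.12% ± 2.80 in pup libraries, while Vmn2r2, Vmn2r3 and Vmn2r5 together took 3.56% ± 0.913 and 4.75% ± 0.688 (SD, n = 3 each). Vmn2r1 took 0.947% ± 0.0425 and 0.979% ± 0.516 of V2R counts.

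**Figure D5:**
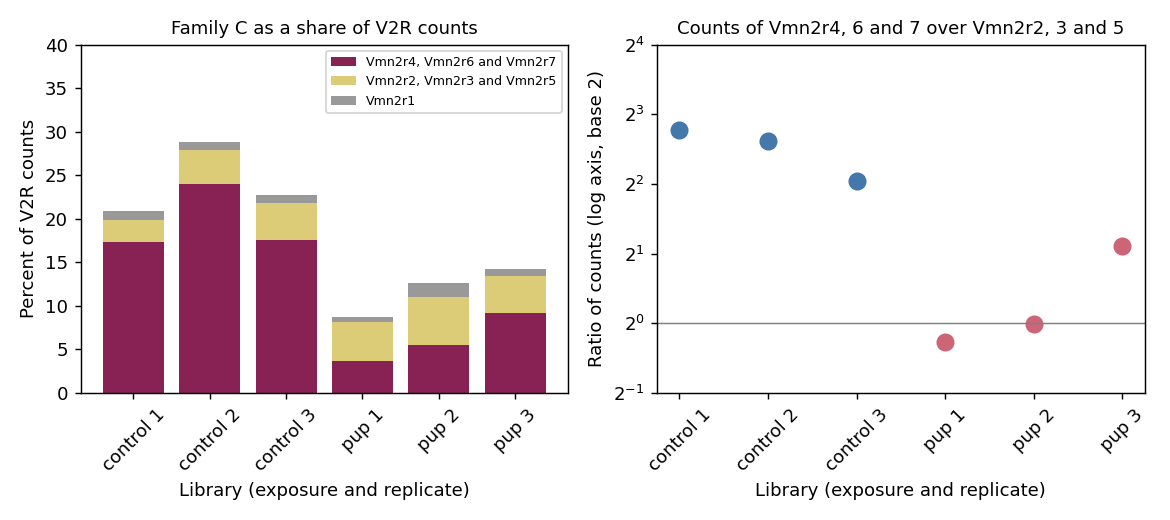
Left, percent of V2R counts in each library held by the trio Vmn2r4, Vmn2r6 and Vmn2r7, by Vmn2r2, Vmn2r3 and Vmn2r5, and by Vmn2r1, as stacked bars. Right, counts of the trio over counts of Vmn2r2, Vmn2r3 and Vmn2r5 in each library (log axis): the control libraries lie between 4.14 and 6.86 and the pup libraries between 0.828 and 2.16.

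Genes that work with family C receptors were read from the same fit. The H2-Mv genes are non-classical MHC class I genes that some V2R neurons express and whose products are thought to accompany V2R receptors. The list read under this name held 10 tested genes, with H2-M2 among them. Of these 10, 0 passed over all genes and 8 had a negative log2 fold change. In every pup library 4 were lower, as were 9.6% of all genes tested. The median of the list was -1.001 beside 0.030 over all genes tested. H2-M10.4 stood at 184.1, 106.4 and 55.9 CPM in control libraries and 53.9, 27.7 and 46.5 CPM in pup libraries (log2 fold change -1.44, SE 0.47, edgeR adjusted p = 0.417), and H2-M1 at 20.9, 32.8 and 13.3 CPM and then 10.99, 8.93 and 9.74 CPM (-1.18, SE 0.44, edgeR adjusted p = 0.424).

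Basal neuron genes (Gnao1, Gng8, Tfap2e, Robo2 and Calr4) had 0 of 5 members past the threshold and no member with separated groups. Their log2 fold change was positive in 2 and negative in 3, with a median of -0.31. Their summed level did separate the groups (741 to 822 CPM in control libraries, 609 to 703 CPM in pup libraries). A sum follows its most abundant members, and Gng8 alone stood at 272.4, 313.5 and 407.8 CPM in control libraries and 180.8, 230.6 and 353.3 CPM in pup libraries. Gnao1, which encodes the G protein that V2R receptors signal through, stood at 37.0, 70.7 and 66.3 CPM in control libraries and 107.1, 92.6 and 59.5 CPM in pup libraries (log2 fold change 0.58, SE 0.40, edgeR adjusted p = 0.588). Family C counts per Gnao1 count were 6.46 ± 1.93 and 2.85 ± 1.83 (SD, n = 3 each) and overlapped between groups (exact permutation test, two-sided, p = 0.2). The apical neuron list (Gnai2, Gng2, Meis2, Nrp2 and Pde4a) had 0 of 5 past the threshold, 4 positive members and a median of 0.47. Its only member with separated groups was Gng2, higher in every pup library (log2 fold change 1.045, SE 0.45, edgeR adjusted p = 0.447). Of 15498 genes tested, 1573 were higher in every pup library. The apical sums were also separated, but higher in pup libraries (399 to 587 CPM in control libraries, 641 to 849 CPM in pup libraries). The part of either list in the family C values was not tested.

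Among the V2R genes outside family C, 90 of 114 were tested, 0 passed over all genes, the log2 fold change was above 0 in 65 and below 0 in 25, and the median was 0.23. The V1R genes had 94 tested members, 0 past the threshold and a median of 0.25. Among 7 tested genes of mature vomeronasal neurons 0 passed and the median was 0.44. In this list 3 genes were higher in every pup library and 1 was lower, where 1573 and 1488 of 15498 genes were. Ano2, a calcium-activated chloride channel, stood at 17.8, 20.9 and 18.3 CPM in control libraries and 31.9, 48.7 and 38.8 CPM in pup libraries (log2 fold change 1.07, SE 0.36, edgeR adjusted p = 0.421). Ano1, of the same channel family, and Kirrel3, a cell adhesion molecule, were the others that were higher (log2 fold changes 0.68 and 0.73, edgeR adjusted p = 0.486 and 0.520). The lower gene was Kcnn3, a calcium-activated potassium channel, which stood at 26.0, 65.9 and 15.6 CPM in control libraries and 0.697, 2.23 and 7.51 CPM in pup libraries (log2 fold change -3.37, SE 0.80, edgeR adjusted p = 0.375).

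Some marker lists for the organ's other cell types moved with the groups, and their part in the family C values was not tested. Sustentacular (supporting) cell markers summed to 3893 to 4496 CPM in control libraries and 1598 to 2333 CPM in pup libraries, with 4 of 7 lower in every pup library and a median log2 fold change of -0.66. Red blood cell genes summed to 205 to 592 CPM and 52.6 to 168 CPM, with 3 of 4 tested members lower in every pup library and a median of -1.50. Markers of immature neurons and progenitors overlapped in their sums (157 to 247 CPM and 93.8 to 180.3 CPM) and had a median of -0.014. Of their 5 tested members 2, Stmn1 and Gap43, were lower in every pup library. Macrophage markers also overlapped in their sums (124.8 to 532 and 53.9 to 1125 CPM, median -0.21). So did endothelial and smooth muscle markers (907 to 1300 and 922 to 1023 CPM, median 0.31). Main olfactory neuron markers overlapped too (126.6 to 193 and 147 to 432.5 CPM, median 0.36). Nasal gland genes, the list with by far the largest sums, likewise overlapped (246400 to 857100 and 140300 to 429300 CPM, median -0.75). CPM divide by TMM-scaled totals, so such sums are not shares of the counts in a library. These counts of members lower in every pup library stand beside 9.6% of all genes tested. In each of these lists 0 members passed over all genes, and every matched marker had a count in at least 1 library.

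The genes whose levels over the 6 libraries were most like Vmn2r1, by Pearson's correlation of log2 CPM among 10870 other genes with a mean of at least 5 CPM, were Vmn1r176, Cep120, Plxnb1, Pcdhgc4 and Chd9 (r from 0.991 to 0.997). For the sum of Vmn2r2 to Vmn2r7 they were Usp21, Dnajc28, Pcgf2, Gusb and Plet1 (r from 0.977 to 0.993). Vmn1r176, a V1R receptor, stood at 10.19, 12.6 and 7.19 CPM in control libraries and 4.50, 26.8 and 11.6 CPM in pup libraries, lowest in pup exposure replicate 1 and highest in pup exposure replicate 2, as was Vmn2r1. With 6 points and so many genes such values describe these libraries only, and the points share library and depth.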

How the data were processed

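The authors deposited whole-number read counts per Ensembl gene for the 6 libraries, not normalized. Per the labels' protocols, lysates were precipitated with an antibody to phosphorylated S6, cDNA came from a low-input kit and the DNA was sheared. The submitters' processing notes name GRCm38 as the build. The sources used here do not name the aligner, the counting tool, the strand setting or the annotation. Of 38561 gene IDs, 36639 were named from GENCODE M21, and Trpc2 was not matched to a row. No input library was analysed here.

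Counts were tested in edgeR 4.0.16 (R 4.3.3) with a quasi-likelihood fit on an intercept and the group, after filterByExpr (minimum count 10, minimum total 15) and TMM scaling. Benjamini-Hochberg adjustment ran over all genes tested, with a threshold of 0.05, and fold changes divide pup by control exposure. The fit was also run on counts simulated from its own means and dispersions with planted changes. Such a simulation cannot test how well the model suits these libraries. CPM are TMM-scaled. Within groups every pair of libraries differed by more than sampling noise, with a chi-square of 86.2 to 299.7 per degree of freedom. Coding sequences were aligned with MAFFT 7.526. Sharing was counted in words of 50 bases of each longest coding transcript, on either strand. Depth was 10590716 to 20871266 counts.

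Alternatives were no filter, scaling by upper quartile, RLE or totals alone, a stricter filter (1 CPM in 3 libraries, 50 counts in all), DESeq2 1.42.0, limma-voom (limma 3.58.1), the replicate number as a block, thinning to 10590716 counts, summed rows and leaving out each library. The members and gene lists were chosen with earlier results of these data known. Named genes are all 7 members, up to 4 per list by smallest p, and the 5 genes most like Vmn2r1 and the sum of Vmn2r2 to Vmn2r7. Vmn2r-ps11 and the counts of other neighbours were chosen for their position or shared sequence, and Vmn2r65, Vmn2r88 and Vmn2r116 as receptors known from earlier results.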

Additional observations from a re-analysis of the deposited data

How the results depend on the processing

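Over all genes edgeR called 0 genes higher and 0 lower (978 and 723 at an unadjusted p under 0.05), and the same with each library left out. DESeq2 called 50 higher and 77 lower, limma-voom 1 and 7, and edgeR without a filter 61 and 59. Among the 7 members the count called was 0 with the filter and 1 without it (Vmn2r7, adjusted p = 0.0366). In DESeq2 Vmn2r7 had an adjusted p of 0.0731. The direction of each member was the same in every alternative, except that Vmn2r1 was at -0.22 without pup exposure replicate 2 and ran up to 0.77 over the libraries left out. For the same 6 fits Vmn2r7 ran from -2.33 to -1.28, Vmn2r6 from -1.95 to -0.93, Vmn2r3 from 0.79 to 1.07, Vmn2r5 from 1.499 to 2.13, Vmn2r2 from 0.046 (without control exposure replicate 1) to 0.82 (without control exposure replicate 2) and Vmn2r4 from -0.75 (without pup exposure replicate 2) to -0.22 (without control exposure replicate 2). Library totals alone moved the median of all genes to 0.31, against 0.030 with TMM, and turned no member. The labels do not say whether the replicate number pairs the samples. Same-numbered libraries correlated in their deviations at -0.035, 0.18 and 0.075, and 1 of 3 control libraries correlated best with its own number. So few values cannot decide whether the samples were paired. With the replicate block 0 genes were called and Vmn2r7 was at -1.92 (edgeR adjusted p = 0.507), so it changed no member's call. Per kilobase of exon the share of Vmn2r2 was 18.0 percentage points higher after pup exposure, against 12.3 in counts, and that of Vmn2r5 4.65, against 2.90, while that of Vmn2r3 was 5.28, against 11.6, and that of Vmn2r4 0.464, against 1.25. Per kilobase of unshared words, added after seeing the data, Vmn2r5 was 4.78 points higher. The lengths used set these differences. The family's share of all counts differed by -0.0102 points, by -0.0307 without the 50 most abundant genes, and ran from -0.0192 to 0.000209 with single libraries left out, the last without control exposure replicate 2. The cause was not tested. The share held by Vmn2r4, Vmn2r6 and Vmn2r7 differed by -31.0 points after pup exposure and by -38.1 to -27.2 with single libraries left out. Depth limits Vmn2r5 most, with 15 to 27 counts in the control exposure libraries.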
